A study of Mus musculus with 6 samples.

Results

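The late cornified envelope genes of the Lce3 group (*Lce3a*, *Lce3b*, *Lce3c*, *Lce3d*, *Lce3e* and *Lce3f*) were followed together with *Crct1* and *Prr9*, which lie in the same gene complex on mouse chromosome 3. These 8 genes, out of 47643 gene IDs in the count tables, were listed by name after their day 5 and day 7 counts in these libraries had been seen. Their change between the days is therefore given below as a description, without a test. The RNA came from organoids (mSGOs) that gland cells of the submandibular salivary gland of C57BL/6 mice, aged 8 to 12 weeks, had formed in Matrigel. The 5-day group and the 7-day group each held 1 library from each of 3 mice, and the labels name the same mice 1, 2 and 3 at both times. All 6 libraries came from organoids that were not irradiated and received no other treatment. WRY medium, with EGF, FGF2, insulin, dexamethasone, the ROCK inhibitor Y27632 and media conditioned by R-spondin1 and Wnt3a, was common to both groups, so that the days differed in culture time only as far as the labels say. Grown from dissociated cells, organoids lack the vessels and nerves of the gland, which limits them as a model of the tissue.

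Cornified envelopes are the tough protein shells that replace the plasma membrane of keratinocytes as these cells flatten and die at the surface of skin and other stratified epithelia. Late cornified envelope proteins are small, rich in glycine, serine and cysteine, and are joined to the shell by transglutaminases after its first scaffold has formed. In human skin, the LCE3 group is known for low levels in resting epidermis and higher levels after injury of the barrier and in psoriasis, while the LCE1 and LCE2 groups belong to undisturbed epidermis. Ducts and acini of a resting salivary gland are not cornified.

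According to the GENCODE vM39 annotation of GRCm39, the 6 Lce3 genes lay next to each other within 68.1 kb. *Lce3a* (ENSMUSG00000054325, chr3:92832594-92833537) was on the minus strand. The other five were on the plus strand, in the order *Lce3b* (ENSMUSG00000042031, chr3:92840286-92841404), *Lce3c* (ENSMUSG00000045475, chr3:92851793-92853040), *Lce3d* (ENSMUSG00000043472, chr3:92864697-92865812), *Lce3e* (ENSMUSG00000074433, chr3:92874368-92875588) and *Lce3f* (ENSMUSG00000068885, chr3:92899533-92900733). *Crct1* (ENSMUSG00000027913, chr3:92921508-92923001, minus strand), which encodes a small protein with a cysteine-rich C-terminal end, followed 20.8 kb after *Lce3f*. *Prr9* (ENSMUSG00000056270, chr3:92029511-92031260, minus strand), which encodes a proline-rich protein, lay 801 kb away on the other side, beyond *Lce3a*. Each Lce3 gene had 2 exons and a coding sequence of 294 bases, while that of *Crct1* had 306 bases and that of *Prr9* 348 bases. No other annotated gene overlapped the exons of these 8 genes.

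The 120 bases that precede each annotated gene start in GRCm39 are shown because the 8 genes were all low on day 5 and higher on day 7, and because the letters of the promoters could be compared without using the counts. They are written 5′ to 3′ on the strand of the gene. Capitals mark 2 short motifs, TTNNGNAA, which is part of what C/EBP factors bind, and ATAAAA, a form of the TATA element that places transcription starts. The stretches lie at chr3:92833538-92833657 for *Lce3a*, chr3:92840166-92840285 for *Lce3b*, chr3:92851673-92851792 for *Lce3c*, chr3:92864577-92864696 for *Lce3d*, chr3:92874248-92874367 for *Lce3e*, chr3:92899413-92899532 for *Lce3f*, chr3:92923002-92923121 for *Crct1* and chr3:92031261-92031380 for *Prr9*.
Lce3a: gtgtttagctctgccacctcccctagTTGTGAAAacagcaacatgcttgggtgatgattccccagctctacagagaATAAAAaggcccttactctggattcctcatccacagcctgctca
Lce3b: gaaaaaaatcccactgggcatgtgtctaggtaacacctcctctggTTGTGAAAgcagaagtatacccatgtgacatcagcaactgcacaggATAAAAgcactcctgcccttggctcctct
Lce3c: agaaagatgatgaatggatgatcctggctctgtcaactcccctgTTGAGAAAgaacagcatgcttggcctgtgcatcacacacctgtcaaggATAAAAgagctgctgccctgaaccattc
Lce3d: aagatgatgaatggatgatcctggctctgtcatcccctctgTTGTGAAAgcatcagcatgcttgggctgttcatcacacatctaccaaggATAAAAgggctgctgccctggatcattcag
Lce3e: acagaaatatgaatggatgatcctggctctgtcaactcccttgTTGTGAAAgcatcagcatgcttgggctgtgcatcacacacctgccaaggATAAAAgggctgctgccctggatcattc
Lce3f: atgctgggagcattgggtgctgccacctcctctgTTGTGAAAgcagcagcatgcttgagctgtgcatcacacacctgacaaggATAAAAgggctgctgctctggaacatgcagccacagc
Crct1: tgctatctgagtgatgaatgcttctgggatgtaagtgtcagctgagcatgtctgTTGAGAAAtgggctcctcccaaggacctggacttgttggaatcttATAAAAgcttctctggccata
Prr9: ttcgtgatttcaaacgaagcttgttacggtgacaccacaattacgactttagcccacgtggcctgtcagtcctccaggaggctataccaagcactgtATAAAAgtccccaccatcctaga

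In these stretches, ATAAAA stood in the last 50 bases before the start of all 8 genes, and 2.99% of 21236 promoters of protein-coding genes held it there on the gene strand. In *Lce3b* to *Lce3f* the letters ran on to GATAAAAG, which stood there in 0.217% of the promoters. The canonical TATAAA was found only before *Crct1* and *Prr9* within 250 bases, against 8.28% of the promoters. TTNNGNAA, searched on both strands, was found in the last 100 bases of the 6 Lce3 genes and *Crct1* but not of *Prr9*, and 15.5% of the promoters held it there. Its match began 94 bases upstream in *Lce3a* and 66 bases upstream in *Crct1*, with the other matches between them. It read TTGAGAAA in *Lce3c* and *Crct1* and TTGTGAAA in the remaining Lce3 genes. CATGCTT, which starts between the marked motifs, occurred in the 250 bases before 5 Lce3 genes, all but *Lce3b*, and in 2.73% of the promoters. The windows of 50 and 100 bases, and the letters ATAAAA, GATAAAAG and CATGCTT, were chosen after the sequences had been read, and the Lce3 genes are copies of one another, so that their matches are not separate observations.

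Other motifs of factors known from keratinocytes were searched on both strands in the 250 bases. AP-1 letters (TGANTCA) stood only before *Prr9*, as TGACTCA, and in 6.47% of the promoters. KLF letters (CACCC) stood before *Lce3a* and *Lce3f*, against 51.6% of the promoters, and TTNNGNAA before 7 of the 8 genes, against 39.4%. ETS letters (GGAA) stood before 7 genes and in 94.2% of the promoters, so that they did not set the group apart. The grainyhead-like letters AACCGGTT were before none of the 8 genes and in 0.127% of the promoters. A match describes letters and is not a binding site.

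Libraries held 1918198 to 2837397 counts in genes, and 3 counts, taken as the floor, stood for 1.04 to 1.51 counts per 1000000 (CPM) after scaling by TMM, the trimmed mean of M-values. Reads outside genes or assigned to none made up 13.7% to 14.4% of the reads on day 5 and 9.12% to 9.74% on day 7. The summed level of 7 marker genes of ductal epithelium was 14325 to 18111 CPM on day 5 and 11413 to 15805 CPM on day 7, all 7 having counts in each library. Most of the sum was *Krt5* and *Krt14*, and *Krt8*, a keratin of luminal duct cells, was the 1 of the 7 past the threshold, with 109 ± 12.2 CPM on day 5 and 69.2 ± 8.76 CPM on day 7 (SD, n = 3, edgeR adjusted p = 0.0374). Summed acinar markers were far lower, at 6.02 to 12.2 CPM and 11.1 to 25.5 CPM. The libraries were made from whole organoids, so more cells of a type and more RNA per cell cannot be told apart in any value below.

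In the 5-day libraries, transcripts of these genes were nearly absent. Of the 8 genes, 6 had 0 counts in all of them, namely *Lce3a*, *Lce3b*, *Lce3d*, *Lce3e*, *Lce3f* and *Prr9*. A count of 0 allows a level up to the floor, which averaged 1.27 CPM over the 3 libraries. *Lce3c* had 2, 2 and 1 counts in mice 1, 2 and 3, and *Crct1* had 2, 0 and 2 counts. In the 7-day libraries all 8 genes had counts in every mouse.

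All 8 genes met the edgeR threshold used for the whole table, which asks for more than 0.6 in log2 fold change in either direction and an adjusted p below 0.05, with higher values on day 7. Over all 15792 genes tested, 12.0% met it in either direction and 7.22% were higher on day 7. All 3 day 7 values lay above all 3 day 5 values for 8 of the 8 genes, against 15.4% of all genes tested. Since the genes were picked from this contrast, nothing is read from these counts. The 6 genes without a day 5 count passed the filter on low counts through day 7 alone.

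*Lce3a* reached 56.0, 114 and 18.6 CPM in 7-day mSGOs of mice 1, 2 and 3, from 146, 327 and 38 counts. Its mean of 62.7 ± 47.8 CPM (SD, n = 3) was at least 49.2-fold higher than the day 5 floor. *Lce3c* rose from 0.825, 1.00 and 0.360 CPM to 71.7, 86.1 and 35.7 CPM, or from 0.730 ± 0.332 to 64.5 ± 25.9 CPM (SD, n = 3). The days did not overlap for either gene, and mouse 2 was highest and mouse 3 lowest on day 7. The ratio of the day means of *Lce3c* was 88.4, and the ratio of its summed counts had an exact Poisson interval of 41.3 to 300.1, which covers counting error only. The 5 counts of *Lce3c* on day 5 left every library under the floor, and its day 7 mean was 50.6-fold above that floor, on the same footing as the bound of *Lce3a*.

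*Lce3f*, at 46.4, 67.7 and 19.6 CPM on day 7, averaged 44.6 ± 24.1 CPM (SD, n = 3) and was at least 35.0-fold above the floor. *Lce3e* had 17.6, 42.0 and 11.7 CPM, a mean of 23.8 ± 16 CPM and a bound of at least 18.7-fold. *Lce3b* had 16.9, 32.3 and 12.2 CPM, a mean of 20.5 ± 10.5 CPM and a bound of at least 16.1-fold. In these 3 genes too, mouse 2 stood above mouse 1 and mouse 1 above mouse 3. *Lce3d* was the weakest of the group, at 9.97, 7.98 and 0.489 CPM from 26, 23 and 1 counts, with a mean of 6.15 ± 5.00 CPM and a bound of at least 4.82-fold. It was the only member that was highest in mouse 1, and its mouse 3 value was under the floor.

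*Crct1* gave the highest level of the 8 genes. It had 0.825, 0 and 0.720 CPM on day 5 and 136, 389 and 99.4 CPM on day 7, from 355, 1122 and 203 counts. Its means were 0.515 ± 0.449 and 208 ± 158 CPM (SD, n = 3), a ratio of 404, and the ratio of summed counts had an exact Poisson interval of 156 to 1474. That ratio rests on 4 counts on day 5, none of whose libraries reached the floor. Set against the floor, as the genes without a day 5 count were, the day 7 mean of *Crct1* was 163-fold above it. *Prr9* was at the other end, with 3.83, 6.25 and 0.489 CPM on day 7 from 10, 18 and 1 counts, a mean of 3.52 ± 2.89 CPM and a bound of at least 2.76-fold. Its single count in mouse 3 did not reach the floor, so that for *Prr9* the days were separated by more than the floor in mice 1 and 2 only.

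Several of these sizes rested on mouse 2. Without its 7-day library, the bound of *Lce3a* dropped to 29.3-fold, that of *Lce3e* to 11.5-fold and that of *Prr9* to 1.70-fold, and the ratio of *Crct1* became 229. Leaving out any other library moved none of the members by more than 1.5 times.

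**Figure D1:**
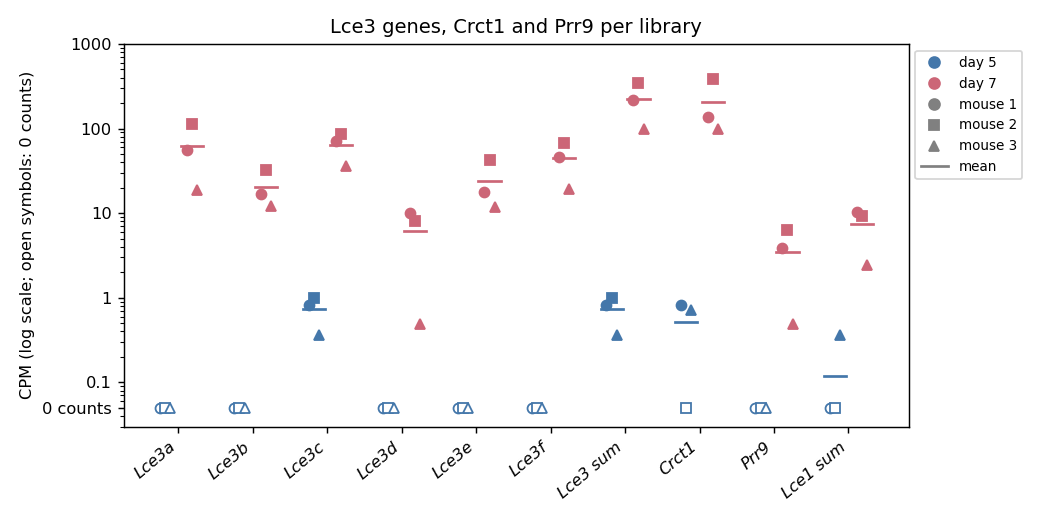
Level in CPM (log axis, TMM-scaled) of the 8 genes, the Lce3 sum and the Lce1 sum in each library, with points for the mice, horizontal lines for the day means and libraries without a count placed at the mark for 0 counts. On day 7 *Crct1* and the Lce3 sum stood highest, *Lce3d* and *Prr9* lowest, and mouse 2 was the highest library for 7 of the 8 genes.

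Because QuantSeq reads come from transcript ends, the ends of the members were compared in the annotated transcripts. Any pair of Lce3 genes shared an identical run of 86 to 208 bases within the last 500 bases, the longest being between *Lce3c* and *Lce3f*. Coding sequences of the pairs were 94.6% to 99.3% identical, with *Lce3d* and *Lce3f* the closest and *Lce3a* and *Lce3b* the most distant. *Crct1* and *Prr9* shared no run over 11 bases with any other member. All 6 Lce3 genes were thus joined by runs of 75 bases, whereas *Lce3a* separated from the rest at 100 bases.

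The shared letters lay in the coding part. Of the runs of 75 bases in the last 500 bases, 89.4% of *Lce3a*, 93.0% of *Lce3b*, 67.6% of *Lce3c*, 58.1% of *Lce3d*, 64.3% of *Lce3e* and 59.6% of *Lce3f* occurred once in GRCm39, and all of those of *Crct1* and *Prr9* did. Runs that began after the stop codon were unique in all 8 genes (100%). Copies of the other runs were found only within other Lce3 genes. The sum thus does not depend on how reads were divided among them, provided that such reads were counted. Every library had 0 reads marked as not uniquely aligned, so whether such reads were left out before counting cannot be told. Reads left out would lower the Lce3 values, and by unlike amounts between genes, beside those of *Crct1*. The read length and the handling of reads with several placements are not given in the sources used here, so the split between Lce3 genes is less certain than their sum.

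**Figure D2:**
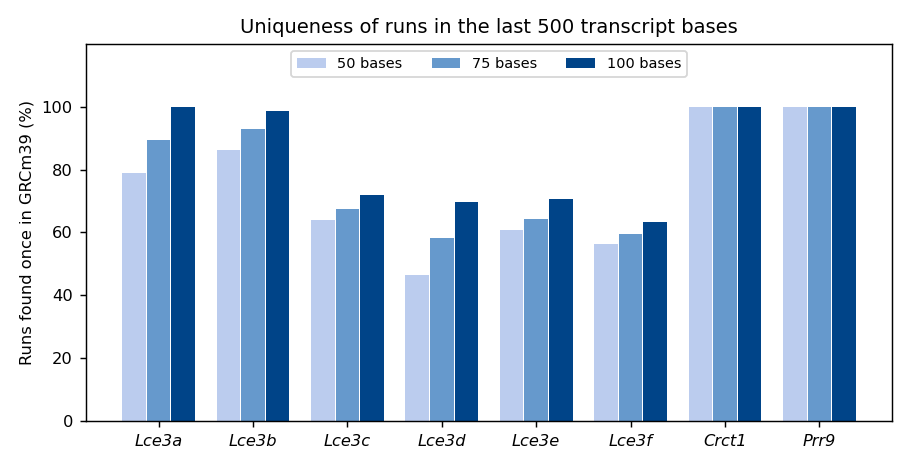
Share (%) of the runs of 50, 75 and 100 bases in the last 500 transcript bases that occur once in the GRCm39 genome, for each of the 8 genes. *Lce3a* and *Lce3b* stood above the other Lce3 genes at each length, and *Crct1* and *Prr9* were at 100%.

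Summed over the 6 Lce3 genes, the counts were 2, 2 and 1 on day 5 and 570, 1007 and 201 on day 7. On the CPM scale the sum went from 0.825, 1.00 and 0.360 to 219, 349.5 and 98.4, and the days did not overlap. The means were 0.730 ± 0.332 and 222 ± 126 CPM (SD, n = 3), a ratio of 304 or 8.25 on the log2 scale, and the ratio of summed counts had an exact Poisson interval of 145 to 1047. All 5 of the day 5 counts of the sum were those of *Lce3c*, under the floor in each library, and set against the floor the day 7 mean of the sum was 174-fold above it. Without *Lce3a*, which separates at 100 bases, the day 7 mean of the sum was 159 ± 78.2 CPM and the ratio 219. The Lce3 sum stood above 95.8% and *Crct1* above 95.4% of all genes tested on day 7 by their mean CPM, whereas *Prr9* stood above 35.2%.

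QuantSeq gives a read per transcript end, so levels of different genes were compared on the CPM scale without division by length. On day 7, *Crct1* was higher than each Lce3 gene in 3 of 3 mice. *Lce3c* was higher than *Lce3a* in 2 of 3 mice, and *Lce3a* was higher than *Lce3f* in 2 of 3, so these neighbours in the order of mean levels did not differ beyond the spread between mice. *Lce3c* was higher than *Lce3f* and *Lce3f* higher than *Lce3e* in 3 of 3 mice. *Lce3e* and *Lce3b* changed places between mice, and both were above *Lce3d* in 3 of 3. *Lce3d* was above *Prr9* in 2 of 3 mice and level with it in mouse 3.

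Each gene's share of the Lce3 counts of a library does not depend on scaling. *Lce3c* made up 32.8% of these counts in mouse 1, 24.6% in mouse 2 and 36.3% in mouse 3 on day 7, with exact binomial intervals of 29.0% to 36.8%, 22.0% to 27.4% and 29.7% to 43.4%. *Lce3a* moved the other way, with 25.6% (22.1% to 29.4%), 32.5% (29.6% to 35.5%) and 18.9% (13.7% to 25%). Mouse 2 thus had a larger share of *Lce3a* and a smaller share of *Lce3c* than the other mice, and its intervals did not overlap theirs. *Lce3f* was the steadiest, with 21.2%, 19.4% and 19.9%, a mean of 20.2% ± 0.959 (SD, n = 3). *Lce3e* averaged 10.7% ± 2.26, *Lce3b* 9.80% ± 2.41 and *Lce3d* 2.45% ± 2.04. *Lce3d* took 4.56% in mouse 1 (3.00% to 6.61%) and 0.498% in mouse 3 (0.0126% to 2.74%), intervals that did not overlap. These intervals cover counting error only.

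**Figure D3:**
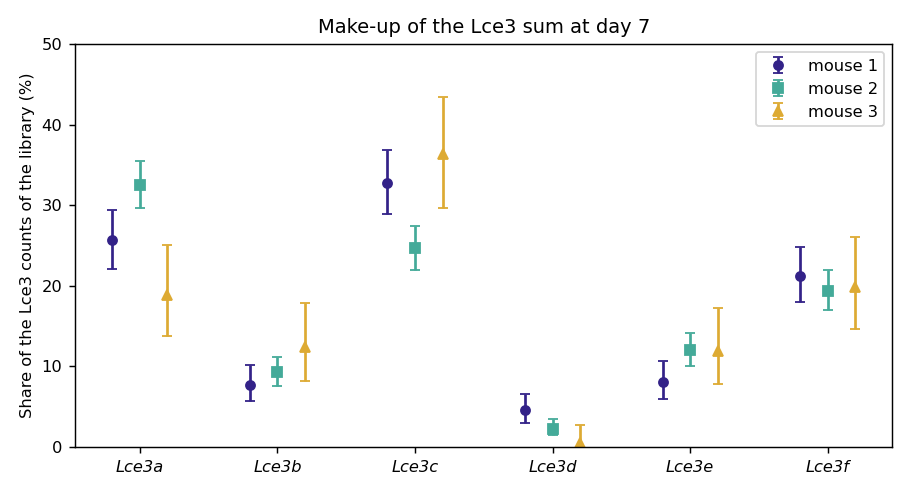
Share (%) of the Lce3 counts of each 7-day library that fell to each of the 6 genes, with a point per mouse and exact 95% binomial intervals as bars. *Lce3a* was highest and *Lce3c* lowest in mouse 2, and *Lce3f* stayed between 19.4% and 21.2%.

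Mice differed more for these genes than for most genes of like level. On day 7 the highest library was 3.55-fold above the lowest for the Lce3 sum, while 1322 genes whose day 7 mean lay within 2-fold of it had a median of 1.47-fold, and 1.59% of them were at least as wide. *Crct1* spanned 3.92-fold, and 0.781% of 1408 genes of like level were at least as wide. *Lce3a* spanned 6.10-fold (0.719% of 3476 genes), *Lce3c* 2.41-fold (9.53%) and *Lce3b* 2.64-fold (11.5%). All 8 genes were lowest in mouse 3, and 7 of them followed the order mouse 2, mouse 1, mouse 3, which 14.4% of all genes tested shared. The members do not count as separate observations of this order, since their reads come from the same 3 libraries. *Crct1* did not follow the Lce3 sum exactly, as its counts were 0.623 times that sum in mouse 1 (exact interval 0.544 to 0.712), 1.11 times in mouse 2 (1.02 to 1.21) and 1.01 times in mouse 3 (0.827 to 1.23).

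Among all genes tested, 502 had no count in the 5-day libraries, and 8 of these had at least 100 counts in total on day 7. *Lce3a*, *Lce3b*, *Lce3e* and *Lce3f* were 4 of the 8. The minimum of 100 was chosen after the values had been seen. The members were picked from the same values and the Lce3 genes are copies of one another, so nothing is read from this share.

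The Lce1 genes of the same complex, which encode late cornified envelope proteins of undisturbed epidermis, were far lower. Of 14 Lce1 genes in the tables, 12 had any count, and their sum was 0, 0 and 1 counts on day 5 and 27, 27 and 5 counts on day 7. The sum on day 7 was 10.4, 9.37 and 2.45 CPM, a mean of 7.39 ± 4.31 CPM (SD, n = 3). The counts of the Lce3 sum were 21.1 times those of the Lce1 sum in mouse 1, 37.3 times in mouse 2 and 40.2 times in mouse 3. Only 6 Lce1 genes could be tested, and *Lce1h*, with 1 count on day 5 and 25 on day 7, was the 1 gene past the threshold (edgeR, adjusted p = 0.00925). *Lce1m*, which starts 2.1 kb from *Crct1*, had no count in any library. Of the runs of 75 bases at the ends of the Lce1 genes, 79.8% to 100% were unique in the genome, beside 58.1% to 93.0% for the Lce3 genes. The nearest tested genes on each side of the Lce3 genes and *Crct1* did not pass the threshold. *Lce1l*, of the same family, had 0 counts on day 5 and 2 on day 7 (edgeR, adjusted p = 0.375), and *Crnn*, which encodes cornulin of the squamous oral lining, had 2 and 1 (adjusted p = 0.789).

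**Figure D4:**
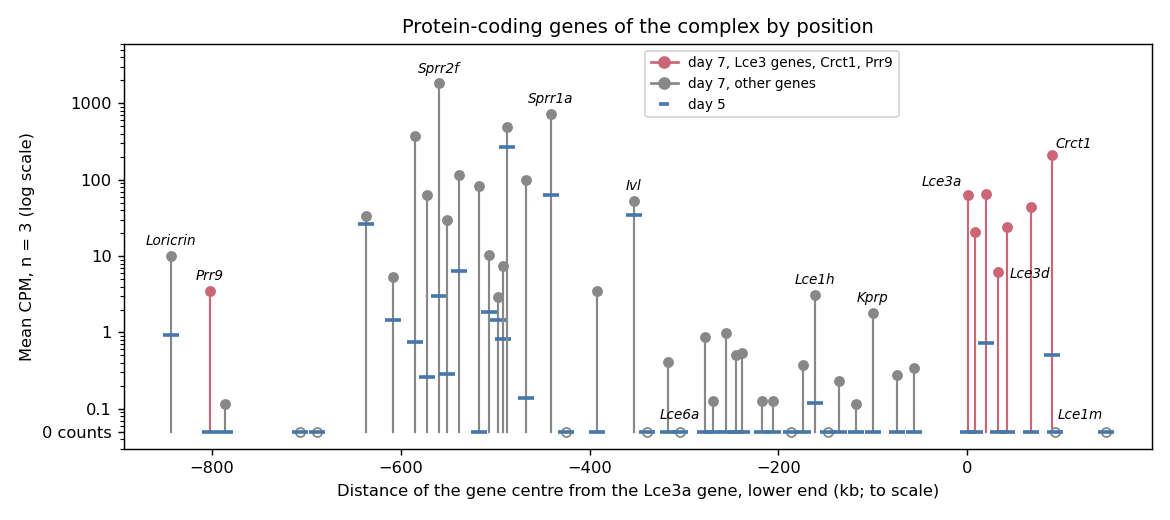
Mean level on day 7 in CPM (log axis) of the genes around the Lce3 group, placed by distance in kb from the lower end of *Lce3a*, with the 8 members in red, other protein-coding genes in grey and blue dashes for day 5 (*Crnn* and *Pglyrp3* lie outside the range shown). *Crct1* and 5 of the Lce3 genes stood above 20 CPM, while *Lce1m* next to *Crct1* was at 0.

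Of the other cornified envelope genes of this chromosome 3 complex, 45 were in the tables and 27 were tested. In the edgeR fit over all genes, 18 of them were higher on day 7 and 0 were lower, beside 7.22% higher and 4.82% lower among all genes tested. There was 1 gene lower at an unadjusted p under 0.05, and 15 higher and 0 lower by DESeq2. The median log2 fold change was 3.53 (3.13 with genes at 0 on a day set to their bound), beside -0.01 over all genes tested. The 3 largest fitted rises were those of small proline-rich proteins, which link other proteins of the envelope. With 0 or 1 count on day 5, the places of *Sprr2i* and *Sprr3* in that order depend on the prior count of the fit. *Sprr2i* had no count on day 5 and 89.7, 116 and 42.1 CPM on day 7, at least 64.9-fold above the floor, and passed the filter through day 7 alone. So did *Kprp*, also among the 18 higher, with 0 counts on day 5 and 14 on day 7. *Sprr2f* rose from 2.99 ± 1.34 to 1829 ± 1193 CPM (SD, n = 3), 9.21 on the log2 scale (adjusted p = 8.15e-09). *Sprr3* had 1 count on day 5 and 88.2, 194 and 19.1 CPM on day 7 (adjusted p = 6.69e-06). Mouse 2 was the highest 7-day library for 17 of the 27 genes, and for 27.3% of all genes tested. The list shares the libraries and the contrast by which the members were chosen, and it is described without a test of its own.

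Cornification genes outside the complex were followed as well. Of 20 tested, 11 were higher on day 7 and 0 were lower in the edgeR fit, beside 7.22% and 4.82% of all genes (0 lower at an unadjusted p under 0.05, and 10 higher and 0 lower by DESeq2), with a median log2 fold change of 1.49, or 1.36 with bounds. *Cnfn*, which encodes cornifelin of the envelope, went from 4 counts to 721 counts and reached 66.7, 166 and 33.3 CPM on day 7, a rise on the log2 scale of 7.21 ± 0.65 (SE) with an edgeR adjusted p of 1.27e-06. *Asprv1*, the protease that processes filaggrin, went from 1 count to 24.5, 26.4 and 12.2 CPM (adjusted p = 2.35e-06). For both genes the days did not overlap and mouse 3 was lowest on day 7. *Cdsn*, also among the 11 higher, had 0 counts on day 5 and 194 on day 7 and passed the filter through day 7 alone. The gene lists were drawn up with results of these libraries known.

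Genes that skin keratinocytes raise after barrier injury, the setting in which LCE3 genes are raised as well, were also followed. Of 13 tested, 8 were higher on day 7 and 0 were lower, beside 7.22% and 4.82% of all genes (edgeR, 0 lower at an unadjusted p under 0.05, and 7 higher and 0 lower by DESeq2), with a median log2 fold change of 2.16, or 1.85 with bounds. With robust dispersion estimates, 5 were higher. *Krt6a*, *Krt16*, *Krt17*, *S100a9* and *Il36a* did not pass the threshold. The mean of *Krt16* was 226 ± 118 CPM on day 5 and 216 ± 163 CPM on day 7 (SD, n = 3). *Krt17* had 784 ± 99.1 and 637 ± 116 CPM, so neither mean was higher on day 7. *Krt6a* had 2935 ± 715 and 4302 ± 726 CPM (edgeR adjusted p = 0.102), while *Krt6b*, with 347 ± 156 and 1655 ± 1208 CPM, was past the threshold. *S100a8*, a subunit of the antimicrobial calprotectin, stood at 47.4 ± 9.46 CPM on day 5 and 211 ± 80.6 CPM on day 7 (SD, n = 3), and its rise on the log2 scale was 2.16 ± 0.26 (SE) with an edgeR adjusted p of 2.48e-05. *Defb4*, a beta-defensin, went from 2 counts to 79 counts and to 8.44, 12.8 and 9.79 CPM on day 7 (adjusted p = 3.74e-05). *Il36b*, also among the 8 higher, had 0 counts on day 5 and 10 on day 7 and passed the filter through day 7 alone. Mouse 2 was the highest 7-day library for 3 of the 13 genes, near the 27.3% of all genes tested.

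The genes whose profile over the 6 libraries was most like that of the Lce3 sum were found from the share of a gene's CPM that fell to each library. The absolute differences between these shares and those of the sum were added and divided by 2, for the 9627 genes that averaged 5 CPM or more, and the median gene differed by 53.2%. *Sprr2e* differed by 1.13%, with 63.3, 98.9 and 25.9 CPM on day 7. *Sprr2d* differed by 2.61%, with 342, 608 and 179 CPM, and *Sprr2f* by 4.09%. The other 3 of the 6 nearest genes lay on other chromosomes. *Alox12b* on chromosome 11, a lipoxygenase needed for the lipid layer of the envelope, differed by 3.40% and had no count on day 5 and 10.7, 20.1 and 5.38 CPM on day 7. *Klk7* (3.54%) and *Klk12* (4.89%) on chromosome 7 encode kallikrein proteases, the former known for the shedding of cornified cells. They reached 9.59, 17.7 and 4.89 CPM and 8.82, 16.7 and 5.87 CPM. All 6 had the order mouse 2, mouse 1, mouse 3 on day 7, which follows from their choice by likeness to the sum. On day 5, *Sprr2f* had 1.65, 3.01 and 4.32 CPM, above the floor in every library, and the other five did not exceed 3 counts in any. Among the members themselves, *Lce3f* differed from the sum by 2.03%, *Crct1* by 11.1% and *Lce3d* by 21.4%. These differences are a description over 6 libraries that share mice.

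**Figure D5:**
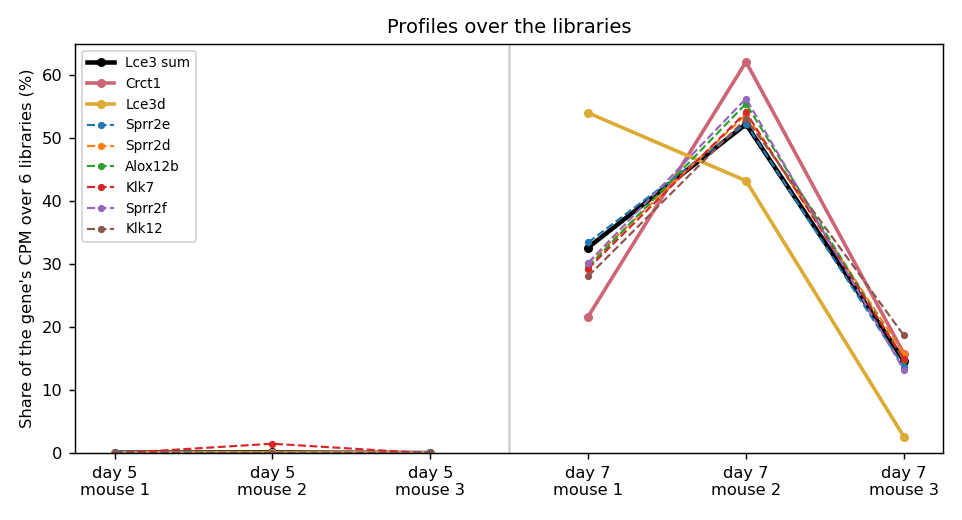
Share (%) of each gene's summed CPM that fell to each of the 6 libraries, for the Lce3 sum, *Crct1*, *Lce3d* and the 6 genes most like the sum, with lines that join the libraries of a day as a guide for the eye. The sum had its highest share in mouse 2 on day 7, and so did its 6 nearest genes, as their choice required. *Lce3d* had its highest share in mouse 1.

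Markers of other cells were measured beside these changes. Summed macrophage markers were 0.360 to 1.65 CPM on day 5 and 3.45 to 6.85 CPM on day 7, *Adgre1*, *Csf1r*, *Tyrobp* and *C1qa* being at 0 in every library, while *Cd68* was higher on day 7 (edgeR adjusted p = 0.0151). Summed fibroblast markers were 0.360 to 0.502 CPM on day 5 and 1.04 to 1.96 CPM on day 7, with *Col1a2*, *Col3a1* and *Lum* at 0. Summed endothelial markers were at most 1.00 CPM on either day, with *Cdh5* and *Tek* at 0, and erythroid markers had no count. Summed markers of the granular and cornified epidermis were 93.2 to 117 CPM on day 5 and 238 to 575 CPM on day 7. Most of this sum was the keratin *Krt10*, while *Krt1* had 4 counts over all libraries and *Flg* had 1 count on day 5 and 16 on day 7. The sum did not hold *Loricrin*, which had 7 and 78 counts. The part of any of these in the values of the Lce3 genes was not tested.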

How the data were processed

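RNA of mSGOs from 3 mice on days 5 and 7 was prepared with the Lexogen QuantSeq 3′ kit. The authors deposited whole-number counts per Ensembl gene ID, not normalised, with reads placed on GRCm39. The submitters' processing notes name edgeR. Aligner, annotation release, strand setting and read length are not given in the sources used here. Lines that name no gene (9.12% to 14.4% of reads) were left out. GENCODE vM39 named 43465 of the 47643 IDs.

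Testing was restricted to genes counted (minimum 1) in 2 or more libraries, and used edgeR 4.0.16 in R 4.3.3 (quasi-likelihood, two-sided, TMM, day as the only term), with Benjamini-Hochberg adjustment. CPM are counts per 1000000 of the TMM-scaled library size. The floor was 3 counts per library, and intervals are exact at 95%. P-values rest on the spread between 3 mice per day, moderated over all genes tested, with the mouse not in the main model. Genes without a day 5 count had no spread on that day. SEs were derived from the log2 fold change and its F statistic. Same-numbered libraries come from the same mouse per the labels, and their deviations correlated at 0.14, -0.10 and 0.16. The edgeR fit was tested on simulated counts.

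Named genes were the 8 members. From the complex list came the 3 largest rises, any falls (all averaging 5 CPM or more) and the nearest tested neighbours, from each other list the 2 smallest p-values, and the 6 genes most like the Lce3 sum. *Lce1h*, *Kprp*, *Cdsn*, *Cd68*, *Krt8*, *Flg*, *Loricrin* and the marker genes at 0 were named after their values were seen. So were the barrier injury genes named here besides *S100a8* and *Defb4*. The members and lists were chosen with earlier results of these data known. Promoters were read from GRCm39 and proteins were not used here. The alternatives were other scaling, filters and tests (DESeq2 1.42.0), a mouse block and leaving out each library.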

Additional observations from a re-analysis of the deposited data

How the results depend on the processing

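The members were picked from this contrast, so their calls under other settings are a description and nothing is read from them. In the main fit 12.0% of all genes tested passed in either direction. All 8 members were past the threshold under every scaling, without a filter, with DESeq2 and with the mouse as replicate block. The exceptions were filterByExpr, which removed *Lce3d* and *Prr9* and left 6, robust dispersion estimates, which left 7 (*Lce3a* was missed), and leaving out the 7-day library of mouse 2, which left 7 (*Prr9* was missed). The log2 ratio of the Lce3 sum was 8.25, 8.18 with library totals and 7.77 without *Lce3a*, and 7.76 to 8.60 when each library was left out. Over all genes, 1901 passed (1140 higher and 761 lower), and leaving out a library gave 794 to 2575 (510 to 1449 higher and 284 to 1126 lower). The lowest counts came without 5-day mouse 1 (892), 2 (794) or 3 (890) and without 7-day mouse 2 (1045). With library totals alone the share of higher calls was 48.5%, against 60.0%. In the paired analysis, the replicate block gave 2339 genes (1322 higher), 8 members, 17 of the other complex genes, 11 cornification genes and 7 barrier injury genes, so that it changed no call of a member. Left-out libraries gave 12 to 21 complex genes, 9 to 12 cornification genes and 6 to 10 barrier injury genes, and robust estimates gave 5 of the last. The cause of these differences was not tested. Depth limits *Lce3d* and *Prr9* in 7-day mouse 3 and the single Lce1 genes, and the day 5 levels of all 8 members, each library being under the floor of 1.08 to 1.51 CPM.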
